A study of Danio rerio with 1324 samples.

Results

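The beta-cells of zebrafish at 9 months post-fertilization (9 mpf) were set against those at 10 mpf, gene by gene. All 86 cells with values at 9 mpf, of 92 with a label, and all 92 at 10 mpf, of 93 with a label, were taken, out of 1014 cells in the TPM tables of the series. The study sequenced single beta-cells from fish of many ages in order to learn to read a cell's age from its transcriptome. The 10 mpf cells served to build that classifier, and the 9 mpf cells were a new batch used to test it. Both groups carried the transgene Tg(ins:BB1.0L), in which the insulin promoter drives a fluorescent label, were fed normally, and were sorted by FACS from primary islets before SMART-Seq v4 cDNA synthesis. The label marks cells that use the insulin promoter and does not remove cells that also make another hormone, and the fish came from outbred stock. Each age is 1 pool of cells from several fish, collected and sequenced apart from the other. Thus 1 month of age, the fish, and the batch cannot be told apart in this comparison.

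Beta-cells make insulin, package it with granins and processing enzymes in secretory granules, and release it when glucose is taken up and phosphorylated by glucokinase. Their identity rests on a set of transcription factors that includes pdx1, mnx1, neurod1 and nkx2.2a. The load of making a secreted protein engages chaperones of the endoplasmic reticulum, and cell isolation is known to induce immediate-early and heat-shock genes within minutes to hours.

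Depth was of the same order in both pools. The 9 mpf cells held a median of 274288 reads, from 171339 to 492207, and the 10 mpf cells a median of 345670, from 82580 to 436303. A median of 2410.5 genes was detected per 9 mpf cell and of 2518.5 per 10 mpf cell. Reads of ins took a median of 45.7% of a 9 mpf cell's reads and 34.6% of a 10 mpf cell's, which left a median of 147210 and 221092 reads for all other genes. Since TPM sums to 1000000 in each cell, a larger ins share lowers every other gene's TPM. Counts over several lists are therefore also given with ins left out. The counts of lists given only as deposited can change as well.

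Marker genes were read beside the label of beta-cell. Detection of ins cannot test that label, since the cells were sorted on the insulin promoter. The gene ins was detected in all 86 and all 92 cells, with a mean of 746908 TPM at 9 mpf and 638075 TPM at 10 mpf. Of the wider lists, hemoglobin and other erythrocyte genes were at 0 in every cell, and of the immune genes SPI1 and laptm5 were found in 1.16% of 9 mpf cells and the rest, among them ptprc and lyz, in none. Acinar markers had reads in 6 cells of 9 mpf, where 1 cell reached 16717 TPM, and in 15 cells of 10 mpf, up to 155.2 TPM. Duct markers had reads in 25 and 32 cells, up to 64.2 and 260.6 TPM. From the wider duct list, krt8 was found in 49 and 75 cells. Its difference in mean log2(TPM + 1), 9 mpf minus 10 mpf, was -2.43. On the same list krt18 and ANXA4 had differences of 0.28 and -0.03, and krt4 and CFTR were at 0 in both pools. The part of cells with acinar or duct markers in the differences was not tested. Somatostatin was found more often: the summed level of the 4 delta-cell markers had a median of 5.16 TPM at 9 mpf, with 9 of 86 cells over 1000 TPM, and of 2010 TPM at 10 mpf, with 56 of 92 cells over 1000 TPM. Most of it was sst1.1, while hhex, the factor that defines delta-cells, was found in 3 cells of 9 mpf and 4 cells of 10 mpf. The alpha-cell markers gcga and gcgb together had medians of 69.7 and 51.5 TPM. Cells rich in another hormone were left out in an alternative described with the results.

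Levels are means over the cells of a pool of log2(TPM + 1), and a difference is 9 mpf minus 10 mpf on that scale. Because neither age has a second pool, the spread was taken from the 4 ages with 2 pools each, in a limma fit over 13 pools with age as a factor and Benjamini-Hochberg adjustment; 9 and 10 mpf are assumed to vary as those pools do. Of 7323 genes tested, 5 passed an adjusted p of 0.05 as lower at 9 mpf, a share of 0.0683%, and 0 passed as higher, a share of 0%. At an unadjusted p under 0.05 there were 411 lower and 110 higher genes, and edgeR's quasi-likelihood test on summed reads called 0 genes, with 698 at an unadjusted p under 0.05.

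The 5 genes that were lower at 9 mpf were sorbs3, gch2, SLC35G2, VGF and ODC1, and each of them was higher at 10 mpf than in any of the 11 pools of other ages. They encode, in this order, the adhesion adaptor vinexin, a GTP cyclohydrolase of pteridine synthesis, a member of the solute carrier family 35, a granin-like precursor of secreted peptides, and ornithine decarboxylase of polyamine synthesis. For these 5 genes the 10 mpf pool was thus the one outside the other pools, since the 9 mpf levels lay within their range. Choosing genes by their gap between 9 and 10 mpf itself pushes a pool towards an extreme. That also holds for the places of the genes named below.

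**Figure D1:**
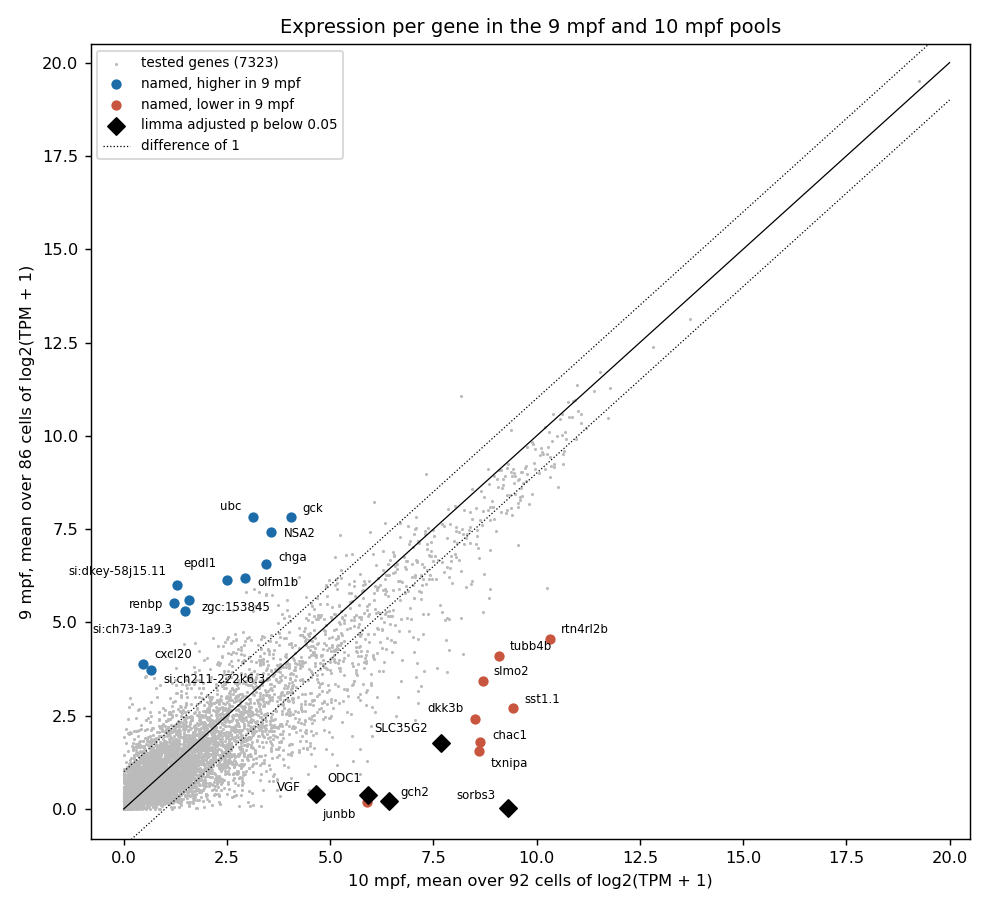
Mean log2(TPM + 1) of each tested gene at 10 mpf (horizontal, 92 cells) and 9 mpf (vertical, 86 cells). Grey points are the 7323 tested genes, black diamonds the 5 genes past an adjusted p of 0.05 in limma, and coloured points the other named genes with the largest differences; dotted lines mark a difference of 1, past which lie 339 higher and 867 lower genes.

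The adaptor sorbs3 (ENSDARG00000037476) showed the largest difference. All 92 cells of 10 mpf had reads of it, at a lowest value of 132.7, a median of 637 and a highest value of 1677 TPM. At 9 mpf, 1 of 86 cells had any (1.16%, exact binomial 95% interval 0.0294% to 6.31%), at 1.32 TPM, so the cells of the pools did not overlap. The difference was -9.30 (SE 0.56, limma adjusted p = 0.000145). The gene passed the filter on low values only through its 10 mpf level, and its standard error comes from same-age pools that were mostly at 0, so the p-value adds little to the levels themselves. It rests on 3 reads at 9 mpf against 132656 at 10 mpf, a ratio of read shares of 35136 with an interval from 12023 to 170379 that covers counting error only.

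Among the other ages sorbs3 was at or near 0, with a single exception. The 4 mpf pool held 16 of 88 cells with the gene, 11 of them over 100 TPM and the highest at 1830 TPM, in the range of the 10 mpf cells. No other pool had more than 1 cell with a read of it, and the second batch of 4 mpf had none in 46 cells. In the 4 mpf pool the gene was thus on in a minority of cells and in the 10 mpf pool in all of them.

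The gene pdlim2 (ENSDARG00000069956), which encodes a PDZ and LIM domain protein of the cytoskeleton, lies 2 places from sorbs3 in the order of genes of the RefSeq annotation of the GRCz12tu assembly, and was chosen after its values were seen. It had reads in 82 of 92 cells of 10 mpf (89.1%, interval 80.9% to 94.7%), at a median of 23.1 TPM. At 9 mpf it was found in 1 of 86 cells, at 38.6 TPM. Its mean over the pools was too low for the test, and its difference was -4.13. In the 4 mpf pool 7 cells had pdlim2, and all 7 were among the 11 cells with over 100 TPM of sorbs3. Elsewhere pdlim2 was mostly found without sorbs3. This held for 5 of 6 pdlim2 cells at 12 mpf, all 3 at 3 mpf, and the 1 cell at 9 mpf and in each 1 mpf pool. The 1 pdlim2 cell at 13 mpf had both. Of the other genes around sorbs3, inpp5l was at 1.82 at 9 mpf and 1.62 at 10 mpf on the log2(TPM + 1) scale, and adgra2 and foxb2 were at 0 in both pools. Higher at 10 mpf were rfk (0.45 at 9 mpf and 1.26 at 10 mpf), prlhr2a (0 and 0.34) and rab11fip1a (0.05 and 0.15). Lower at 10 mpf was got1l1 (0.08 and 0). Some neighbours, nkx6.3 among them, had no matched value. The reads carry no strand, so that transcripts overlapping either gene on the other strand cannot be told apart from its own.

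The pteridine enzyme gch2 (ENSDARG00000099101) was uneven within the 10 mpf pool. Its values there ran from 0 to 4125 TPM with a median of 180, and 69 of 92 cells had reads of it. At 9 mpf 4 of 86 cells had reads, the highest at 346 TPM. The difference was -6.21 (SE 0.61, limma adjusted p = 0.0063), and the cells overlapped at 0 and at the few 9 mpf cells with the gene.

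The transporter gene SLC35G2 (ENSDARG00000056262) was found in 91 of 92 cells of 10 mpf, at a median of 229 and a highest value of 1045 TPM. It was found in 29 of 86 cells of 9 mpf, the highest at 210 TPM, and the difference was -5.90 (SE 0.68, limma adjusted p = 0.018). Ornithine decarboxylase, ODC1, had a median of 131.6 TPM at 10 mpf and was detected in 79 of 92 cells, against 7 of 86 cells of 9 mpf. Its difference was -5.54 (SE 0.72, limma adjusted p = 0.029). The peptide precursor VGF had a median of 59.17 TPM at 10 mpf in 67 of 92 cells, against 6 of 86 cells of 9 mpf, with a difference of -4.25 (SE 0.52, limma adjusted p = 0.021). For SLC35G2, ODC1 and VGF the upper end of the 9 mpf cells reached into the lower part of the 10 mpf cells.

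These calls depended on which pools gave the spread. For sorbs3 a repeated pass adds little, since most same-age pools were at or near 0 whichever was left out. Only sorbs3 passed in the fits without either 6 mpf pool, and sorbs3 and gch2 in the fits without either 1 mpf pool. Without a 3 mpf pool 21 or 23 genes passed and without either 4 mpf pool 8, with the 5 genes among them each time. Of the 5 genes, 0 passed on log2 of the mean TPM or in edgeR.

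Many further genes had large differences that did not pass the test. On the scale of the means, 867 genes were lower at 9 mpf by more than 1 (11.8% of those tested) and 339 were higher by more than 1 (4.63%), and 57 were lower and 15 higher by more than 3. With ins left out and TPM rescaled, the same counts were 928 lower and 781 higher. With edgeR they were 1208 lower and 1393 higher, but edgeR compares reads summed over a pool's cells, so measure and scaling both change. On log2 of the mean TPM they were 1474 lower and 792 higher. The balance of directions thus depended on the scaling and on the measure. The direction of the 12 largest differences each way was the same under all of these. That is partly set in advance, since genes were named only with the same sign in mean TPM. The median over all tested genes was -0.05 as deposited and 0.04 without ins.

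Among the largest, txnipa and chac1 had their highest mean log2 level at 10 mpf and their lowest at 9 mpf. The gene txnipa is a fish copy of the thioredoxin-interacting protein gene, which glucose induces in mammalian beta-cells. It had a median of 493 TPM at 10 mpf in 89 of 92 cells and was found in 25 of 86 cells of 9 mpf, the highest at 165.4 TPM. The difference was -7.05 (SE 1.52, limma adjusted p = 0.19). The 9 mpf pool was the lowest and the 10 mpf pool the highest of all 13 pools, the 11 others lying from 1.93 to 6.53.

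The gene chac1 encodes an enzyme that degrades glutathione and is a known target of the transcription factor ATF4. It was present in all 92 cells of 10 mpf, from 84.7 to 1465 TPM, and in 27 of 86 cells of 9 mpf, up to 276 TPM. The difference was -6.83 (SE 1.07, limma adjusted p = 0.065). The pools of other ages lay from 2.37 to 8.11, and the upper end of that range were both 1 mpf pools. By mean TPM these were above the 10 mpf pool, with 886 and 873 against 457 TPM.

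Other genes with the largest lower values at 9 mpf were dkk3b, of the dickkopf family of secreted proteins, rtn4rl2b, a Nogo receptor-like gene, slmo2, and the tubulin gene tubb4b. The receptor-like rtn4rl2b had a median of 55.5 TPM at 9 mpf and 1339 TPM at 10 mpf, with a difference of -5.76 (SE 0.82, limma adjusted p = 0.051). The tubulin tubb4b was found in 58 of 86 and in all 92 cells, with a difference of -4.99 (SE 0.88, limma adjusted p = 0.093). On the log2 scale these genes, too, were higher at 10 mpf than in all 11 other pools, while by mean TPM dkk3b was higher in the 4 mpf pool, with 962 against 669 TPM.

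The AP-1 subunit junbb behaved the other way round. It was found in 5 of 86 cells of 9 mpf and in 77 of 92 cells of 10 mpf, at a median of 111.8 TPM. The 9 mpf mean of 0.19 was below all other pools, which lay from 3.93 to 7.54, while the 10 mpf mean of 5.89 was within them. The difference of -5.69 (SE 1.11, limma adjusted p = 0.12) is thus a departure of the 9 mpf pool.

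**Figure D2:**
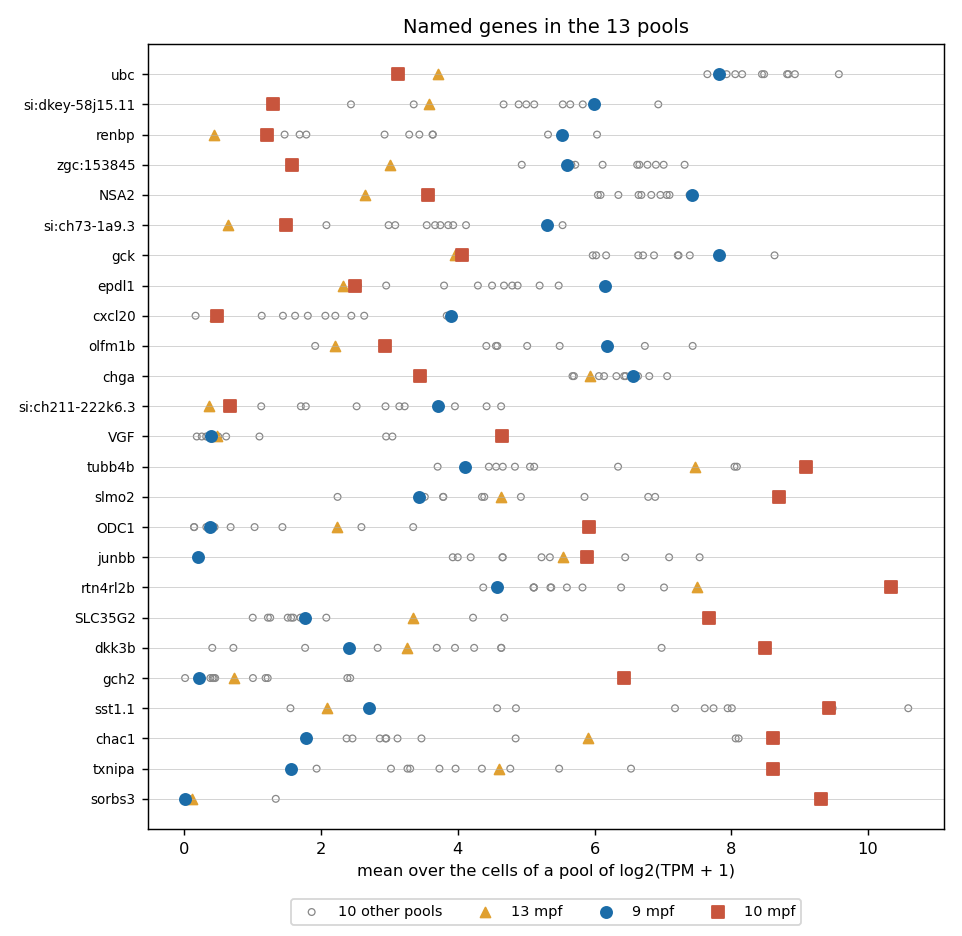
Mean log2(TPM + 1) of the named genes with the largest differences or a call, in the 13 pools. Blue circles are 9 mpf, red squares 10 mpf, yellow triangles 13 mpf and open circles the 10 other pools; sorbs3 lies at 9.31 at 10 mpf and at 1.34 or below in every other pool, and ubc at 3.12 at 10 mpf and 3.70 at 13 mpf against 7.65 or more elsewhere.

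On the other side, none of the genes with higher levels at 9 mpf passed the test. The largest difference was that of ubc (ENSDARG00000102632), a polyubiquitin gene, with a median of 247 TPM in 86 of 86 cells of 9 mpf and of 2.74 TPM at 10 mpf, where 50 of 92 cells had it. The difference was 4.70 (SE 0.78, limma adjusted p = 0.065). It passed the test with ins left out, as did pdx1. Other polyubiquitin genes are in the table, and reads shared among copies may have been split between them.

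The glucose-sensing enzyme glucokinase, gck, had a median of 267 TPM at 9 mpf in 85 of 86 cells and of 42.9 TPM at 10 mpf in 62 of 92 cells. The mean TPM was 5.13 times as high at 9 mpf, and the difference was 3.76 (SE 0.79, limma adjusted p = 0.16). After every cell was thinned to 100000 reads, gck was found in 98.8% of 9 mpf and 67.8% of 10 mpf cells, which are close to the shares at full depth of 98.8% and 67.4%. This thinning does not equalize the reads of genes other than ins. Other counts of cells with a gene are at full depth, where 9 mpf cells had fewer such reads.

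The remaining genes in this direction were si:dkey-58j15.11, renbp, a gene of amino sugar metabolism, zgc:153845, NSA2, which acts in ribosome assembly, si:ch73-1a9.3, the ependymin-like epdl1, the chemokine gene cxcl20, olfm1b, chga and si:ch211-222k6.3, with differences from 3.05 to 4.70. For ubc, chga, zgc:153845 and si:dkey-58j15.11 the 10 mpf pool was below all other pools. For NSA2, epdl1 and cxcl20 the 9 mpf pool was above all other pools.

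For some of these genes, and for pdx1, which is not among them, the low level at 10 mpf recurred at 13 mpf and at no other age. Others did not share this by their share of cells with reads. From 10 to 13 mpf chga went from 55.4% to 90% and si:dkey-58j15.11 from 32.6% to 80%. Low shares at other ages were seen for cxcl20, with 5.13% in 1 pool of 6 mpf, and olfm1b, with 31.8% in 1 pool of 4 mpf. The ubc level was 3.12 at 10 mpf and 3.70 at 13 mpf, and 7.65 or more in every other pool. The gck level was 4.05 and 3.96 there, and 5.97 or more in the others. The pdx1 level was 8.17 and 8.26, and 9.54 or more in the others. For NSA2 it was 3.57 and 2.65, and 6.05 or more in the others.

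Counted over the 339 genes that were higher at 9 mpf by more than 1, the 13 mpf level was nearer to 10 mpf than to 9 mpf for 276 (81.4%), and the 12 mpf level for 78. In the other pools of 3 mpf and older this share lay from 22.1% at 6 mpf to 43.7% at 14 mpf. Over the 867 lower genes the 13 mpf level was nearer to 10 mpf for 58.4%, and the levels of the 1 mpf pools for 88.9% and 87.8%. In the other pools of 3 mpf and older it was from 11.3% at 3 mpf to 49.9% in the second batch of 4 mpf. Over the 339 higher genes the 1 mpf levels were instead nearer to 9 mpf, for 86.4% and 86.7%. Over all 1206 genes the shares nearer to 10 mpf were 64.8% for 13 mpf and 67.7% and 66.8% for the 1 mpf pools. The 1 mpf shares cannot show a likeness to 10 mpf, since the 1 mpf pools lay above both pools for most genes. Over all tested genes the median of 9 mpf minus 1 mpf was -1.01 and -1.07, and of 10 mpf minus 1 mpf -0.92 and -0.99. Across all tested genes, which are not independent replicates, the 9 mpf profile was closest to 12 mpf (Spearman's rho 0.868) and the 10 mpf profile to 13 mpf (0.806), while 9 and 10 mpf had a rho of 0.736. In the paper the 9 and 13 mpf cells were new batches, and 13 mpf shared a plate with 1 of the 1 mpf pools. The classifier ages, 10 and 12 mpf among them, were sequenced in fewer batches than ages, so some of those ages shared a batch. Which of them did is not given in the labels, nor is any sharing of fish. The order of closeness was the same with another pseudocount, after thinning and without ins.

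**Figure D3:**
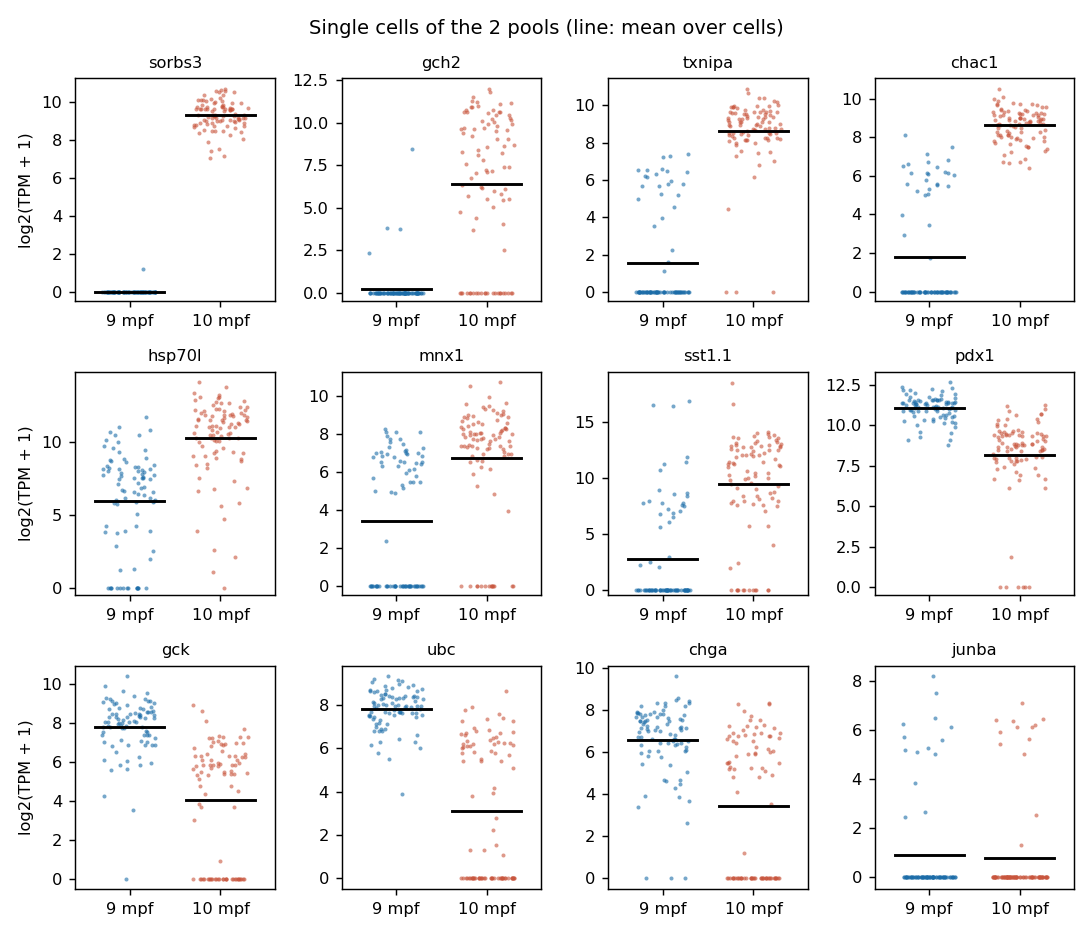
log2(TPM + 1) of 12 genes in each cell of 9 mpf (blue, 86 cells) and 10 mpf (red, 92 cells); black lines are means over cells and points are spread sideways at random. The cells of the pools separate for sorbs3, overlap little for chac1, and overlap throughout for junba.

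The beta-cell transcription factors went in different directions. The factor pdx1 (ENSDARG00000002779), which sustains insulin transcription, was between 445 and 6425 TPM in every 9 mpf cell, with a median of 2348. At 10 mpf it had a median of 436 TPM, a highest value of 2402, and was not detected in 6 of 92 cells. The mean TPM was 4.33 times as high at 9 mpf, with a difference of 2.91 (SE 0.48, limma adjusted p = 0.065), and the 9 mpf level was above and the 10 mpf level below those of all 11 other pools.

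The factor mnx1, which in zebrafish keeps beta-cells from an alpha-cell fate, went against pdx1. It was found in 45 of 86 cells of 9 mpf, at a median of 29.2 TPM, and in 78 of 92 cells of 10 mpf, at a median of 215 TPM. The difference was -3.30 (SE 0.94, limma adjusted p = 0.39), and here 9 mpf was below and 10 mpf above all other pools.

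The maturity marker ucn3l, a urocortin that mature beta-cells secrete, was found in 28 of 86 and 57 of 92 cells, with a difference of -3.28 (SE 1.85, limma adjusted p = 0.85), within a range of 0.18 to 6.95 over the other pools. The factors neurod1, nkx2.2a, isl1 and pax6b had differences between 0.29 and 0.81. Of 14 beta-cell markers tested, 3 were higher past 1 (pdx1, chga and nkx6.2) and 2 lower past 1 (mnx1 and ucn3l), with a median of 0.44 beside -0.05 over all genes. With ins left out, 7 of 13 were higher past 1. Counts of list members past 1, here and in what follows, stand beside shares over all tested genes. These were 11.8% lower and 4.63% higher as deposited, 12.7% and 10.7% without ins, and 16.5% and 19.02% with edgeR on summed reads. The tested genes include some at 0 in both pools, such as mxa, which cannot pass 1. The shares may therefore be a low background for lists of well-expressed genes.

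Granins and processing enzymes of the insulin granule were mostly lower at 9 mpf. Of 15 tested, 7 were lower past 1 and 3 higher, and their median was -0.49. Beside VGF, the enzymes pam, pcsk2 and cpe, which amidate or cleave prohormones, had differences of -1.47, -1.23 and -1.20, and the granule membrane proteins ptprna and ptprnb -1.91 and -1.88. The granin chga, at 3.10, 1 of the 2 IDs named scg5 (ENSDARG00000077045), a chaperone of the convertase, at 2.51, and sytl4, at 1.15, went the other way. The other scg5 ID (ENSDARG00000032126), found in every cell, had a difference of -0.29. Without ins the median was 0.02 with 5 lower and 3 higher. With edgeR on summed reads it was -0.20 with 1 lower and 3 higher, so the direction of the list depended on the scaling and the measure.

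In glucose handling, the transporter gene slc2a2, with a difference of 1.83, and gck were higher at 9 mpf. The glycolytic genes pgam1a (-4.28), ldha (-2.64) and pgk1 (-1.79) were lower. So was g6pcb, a catalytic subunit of glucose-6-phosphatase, which opposes glucokinase. Its median was 24.9 TPM at 9 mpf and 557 TPM at 10 mpf, and its difference of -3.81 had a standard error of 3.05 (limma adjusted p = 0.98), since pools of the same age differed in it as well. None of these genes passed the test. Of the 24 genes of glucose metabolism tested, 2 were higher and 5 lower past 1, and without ins 4 and 5.

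Stress-response genes were low at 9 mpf relative to 10 mpf. Of 24 heat-shock genes tested 13 were lower past 1 and 0 higher, with a median of -1.17 beside 11.8% and 4.63% of all tested genes, and of 28 genes of endoplasmic reticulum stress 12 were lower and 2 higher, with a median of -0.82. Without ins the counts were 11 and 0, and 10 and 2. No member of either list passed the test. The heat-shock genes as a list were at a mean level of 2.98 at 9 mpf, below all 11 other pools, which lay from 3.04 to 5.76, and of 4.23 at 10 mpf, within them. The endoplasmic reticulum list showed the same order, with 2.43 at 9 mpf and 3.36 at 10 mpf beside 2.58 to 5.84 in the other pools.

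The chaperone hsp70l, an inducible Hsp70, had values from 0 to 3290 TPM at 9 mpf with a median of 117.3, and from 0 to 17180 TPM at 10 mpf with a median of 2067. The difference was -4.32 (SE 1.27, limma adjusted p = 0.42). The copies hsp70.1, hsp70.2 and hsp70.3 had differences of -3.57, -2.42 and -2.31; these genes are alike in sequence, and reads may have been split among them. The luminal chaperone hspa5, known as BiP, was found in 73 of 86 and in all 92 cells, at medians of 76.99 and 467 TPM, with a difference of -3.42 (SE 1.28, limma adjusted p = 0.58). The transcription factor atf4a had -2.96 and the secreted survival factor manf -2.84.

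Immediate-early genes followed the same order. Of 18 tested, 8 were lower past 1 and 1, btg2, was higher, with a median of -0.79. Without ins 9 were lower and 2 higher. Beside junbb, the AP-1 subunits fosl2 and jund had differences of -4.24 and -2.03, the nuclear receptor gene NR4A1 -2.35, and the activity-dependent factor npas4a -2.20. The level of fosl2 was 0.46 to 3.00 in the other pools and 4.72 at 10 mpf, where 83 of 92 cells had it against 13 of 86 at 9 mpf.

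The 2 transcription factor genes that the study followed, junba and fosab, did not share this. For junba (ENSDARG00000074378) 14 of 86 cells of 9 mpf and 13 of 92 cells of 10 mpf had reads, and the difference was 0.11 (SE 0.63, limma adjusted p = 1). Both pools were below all 11 others, which lay from 0.95 to 3.76. For fosab (ENSDARG00000031683) the median was 220 TPM at 9 mpf and 138.8 TPM at 10 mpf, with a difference of 0.13 (SE 0.59); a sign that small turned with the set of cells used. A second ID, ENSDARG00000097234, is also named fosab and had a difference of 0.94.

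Genes of protein synthesis were lower at 9 mpf as deposited. Of 84 tested genes named for cytosolic ribosomal proteins, the binding protein gene rps19bp1 among them, 25 were lower past 1 and 0 higher, with a median of -0.63. However, without ins 5 were lower and the median was -0.12, and with edgeR on summed reads 10 were lower and the median was -0.31. Of 72 genes named for translation factors 29 were lower and 4 higher, with a median of -0.67. That list was drawn by name and also holds regulators of the factors. Among these, EIF4EBP2 (-1.37) was counted as lower and the kinase gene eef2k (1.23) as higher. Without ins 24 were lower and 7 higher, with a median of -0.55, and with edgeR on summed reads 14 and 5, with a median of -0.57. The helicase eif4a1a and the cap-binding eif4e1c had differences of -3.97 and -3.58. Splicing factors had a median of -0.47 with 22 of 60 lower and 0 higher. The counts were likewise 22 and 0 without ins, and 16 and 2 with edgeR on summed reads. Proteasome subunits had 2 of 42 lower and a median of -0.27, with 3 lower and 4 higher without ins. Nuclear genes of the respiratory chain had 12 of 90 lower, 4 higher and a median of -0.18. Without ins this turned to 10 lower, 12 higher and a median of 0.03, and with edgeR on summed reads 4 were lower and 4 higher.

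**Figure D4:**
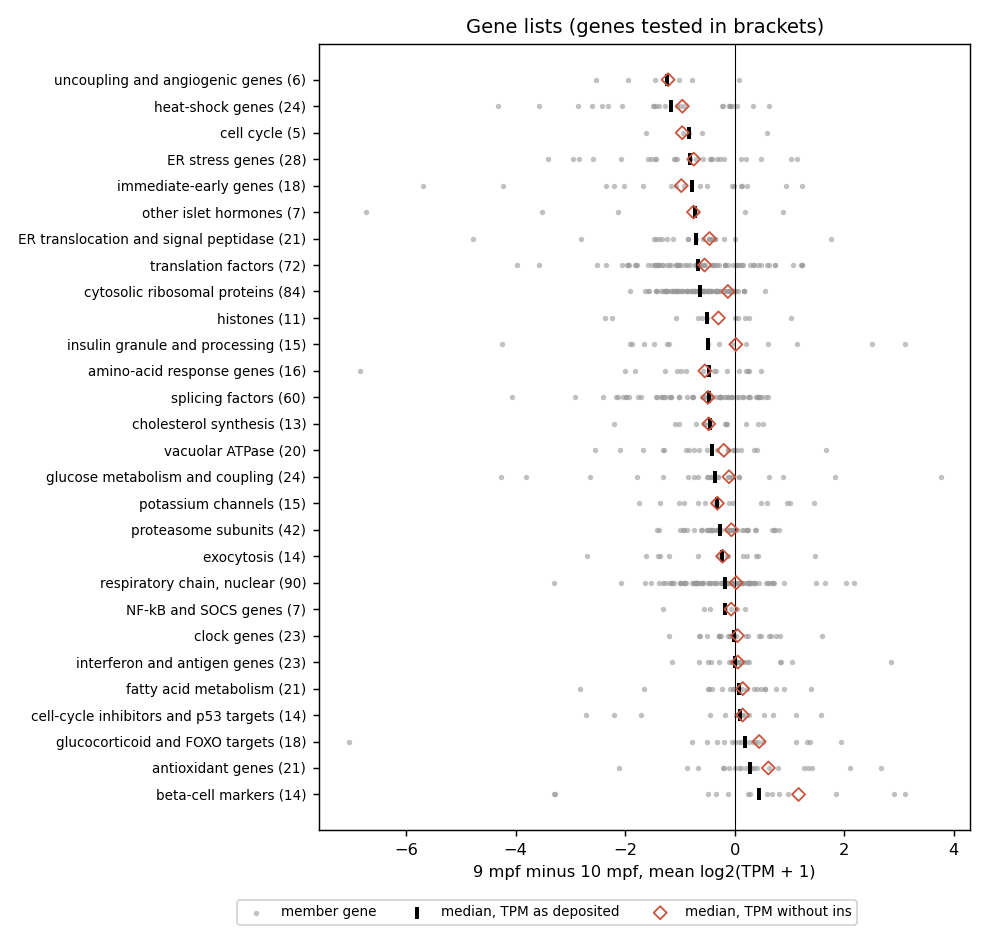
Difference of 9 mpf minus 10 mpf for each tested member (grey) of the 28 gene lists with 5 or more tested members, with the list's median as deposited (black bar) and with ins left out (open red diamond). Heat-shock genes have a median of -1.17, cytosolic ribosomal proteins of -0.63 as deposited and -0.12 without ins, and beta-cell markers of 0.44.

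The path of proinsulin into the endoplasmic reticulum held a large difference in SSR1, a subunit of the translocon-associated protein complex. It was found in 17 of 86 cells of 9 mpf and 74 of 92 cells of 10 mpf, at medians of 0 and 125.3 TPM. The difference was -4.77 (SE 0.90, limma adjusted p = 0.11), with 9 mpf below and 10 mpf above all other pools. Of the 21 translocation and signal peptidase genes 8 were lower past 1 and 1 higher, with a median of -0.70. Without ins 6 were lower, and with edgeR on summed reads 4, with a median of -0.38. The gene of the signal recognition particle receptor, srpr, had a difference of -2.80.

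Of 16 genes of the amino-acid response 5 were lower past 1 and 0 higher. Beside chac1 they were slc3a2b (-2.001), of amino acid transport, mthfd2 (-1.81), of mitochondrial folate metabolism, the pseudokinase gene TRIB3 (-1.27), and phgdh (-1.06), of serine synthesis. TRIB3 was found in 1 of 86 cells of 9 mpf and 21 of 92 cells of 10 mpf. In cholesterol synthesis 3 of 13 genes were lower past 1, hmgcra, SQLE and insig1, and 0 higher. In fatty acid metabolism ACSL4, an acyl-CoA ligase, was found in 4 of 86 and 50 of 92 cells, with a difference of -2.83 (SE 0.64, limma adjusted p = 0.21), while the list had a median of 0.08.

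Among cell-cycle inhibitors and p53 targets, ccng1 had medians of 75.5 and 292 TPM and a difference of -2.71 (SE 0.63, limma adjusted p = 0.23), GADD45A a difference of -2.21, and gadd45aa of 1.57. Of the 14 genes of that list tested, 3 were lower past 1 and 2 higher, with a median of 0.09. With edgeR on summed reads 3 were lower and 5 higher, with a median of 0.57. The list as a whole was at a mean level of 1.61 at 9 mpf and 1.80 at 10 mpf, both below all 11 other pools. Of 14 genes of exocytosis 5 were lower past 1 and 1 higher, with a median of -0.22. Without ins 4 were lower and 1 higher, and with edgeR on summed reads 2 and 1. The vesicle genes SYT4 and vamp2 had differences of -2.70 and -1.36 and rims2b one of 1.47. Of 15 potassium channel genes tested 3 were lower past 1 and 2 higher, with a median of -0.32. The channel gene KCNK3 was found in 16 and 47 cells, with a difference of -1.75. KCNJ8, an inward rectifier of ATP-sensitive channels, had reads in 25 of 86 cells of 9 mpf and in 0 of 92 cells of 10 mpf, with a difference of 1.44 (SE 0.60, limma adjusted p = 0.67). By the exact binomial interval, which covers counting error only, the latter allows up to 3.93% of cells of that pool with a read, and says nothing of expression below detection. Pools of 1 age differed in KCNJ8 as well, with 39.2% and 5.71% of cells at 3 mpf, and at 13 mpf it was found in 2%.

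Of 21 antioxidant genes 5 were higher past 1 and 1 lower, with a median of 0.29. Without ins 7 were higher and 2 lower. On log2 of the mean TPM 2 were higher and 2 lower, with a median of 0.14. The 5 as deposited were gstp1 (2.68), gpx1a (2.102), gpx3 (1.42), PRDX4 (1.33) and prdx6 (1.27), which encode enzymes that conjugate or use glutathione or reduce peroxides. The lower one was the metallothionein gene mtbl (-2.11). Of 18 genes known as targets of FOXO factors or glucocorticoids 4 were higher past 1, namely foxo1a (1.95), arrdc3b, tsc22d3 and sesn1, and txnipa was lower. The arrestin-domain gene arrdc3b was found in 30 of 86 and 9 of 92 cells. None of these passed the test.

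The growth factor genes vegfaa and vegfab were lower at 9 mpf, with differences of -2.53 (SE 0.79, limma adjusted p = 0.46) and -1.95, as was the uncoupling protein gene ucp2, with -1.46 (SE 1.17, limma adjusted p = 0.97). Detection of vegfaa was 39 of 86 and 73 of 92 cells. At 9 mpf vegfab was below all 11 other pools. Clock genes had a median of -0.01 with 1 of 23 higher and 1 lower (4 and 1 without ins), and interferon and antigen genes a median of 0.00 with 2 of 23 higher and 1 lower.

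Among genes of major histocompatibility class I, mhc1uba had a difference of 2.85 with a standard error of 2.76. Pools of 1 age differed in it as well, with 90.9% and 13.0% of cells at 4 mpf. The difference of mhc1zba was -0.05. The gene mhc1zea, chosen after its values were seen, had a difference of -3.002 (SE 0.65, limma adjusted p = 0.19). Reads of mhc1zea were found in 2 of 86 cells of 9 mpf and 88 of 92 cells of 10 mpf, at a median of 6.43 TPM there, and in at least 32.4% of the cells of every other pool. Class I genes are a family whose members differ between fish, so reads of an allele absent from the genome build may have been counted for another member.

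Among other hormones, sst1.1 was found in 28 of 86 cells of 9 mpf and 80 of 92 cells of 10 mpf, at medians of 0 and 1805 TPM and highest values of 122342 and 383781 TPM. The difference was -6.74 (SE 1.77, limma adjusted p = 0.34), within a range of 1.55 to 10.59 over the other pools. Across the other limma fits the difference of sst1.1 was as small as -1.29, and with edgeR on summed reads it was -0.72. The peptide hormone gene PYY had a difference of -3.51. For sst2 and sst1.2 the sign depended on a few cells: the mean TPM of sst2 was 1195 at 9 mpf and 68.4 at 10 mpf, although more cells had it at 10 mpf.

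When the 12 cells of 9 mpf and 61 cells of 10 mpf with more than 1000 TPM of other islet hormones were left out, 953 genes were lower and 434 higher by more than 1, and 8 genes passed the test, all lower, among them the 5 named above. The heat-shock median was then -1.43 and the ribosomal median -0.58. The part of these cells in the other differences was not tested further.

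The size of the difference was within what pools of the same age showed. Between 9 and 10 mpf 1206 genes (16.5%) differed by more than 1. Between both 1 mpf pools, which were sequenced as separate batches, it was 51 genes, and between both 6 mpf batches 874. Between both 4 mpf batches it was 1305 and between both 3 mpf batches 1869, but the depth of those batches differed as well, with medians of 274026 and 785792 reads at 4 mpf and of 839391 and 238828 at 3 mpf. Pools 1 month apart thus differed by more genes than 2 of the 4 pairs of 1 age and by fewer than the other 2, and after thinning to 100000 reads the order was the same. By the number of genes past 3 as well, the 57 lower and 15 higher genes lay between the 4 mpf batches, with 62 and 23, and the 6 mpf batches, with 9 and 18.

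**Figure D5:**
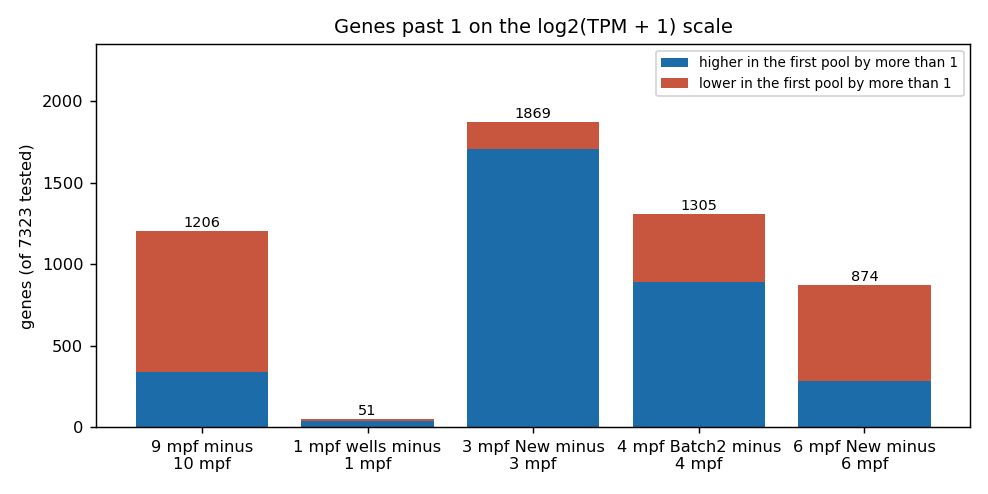
Number of genes, of 7323 tested, that differ by more than 1 on the log2(TPM + 1) scale between 9 and 10 mpf and between the 2 pools of 1, 3, 4 and 6 mpf. Blue counts genes higher in the pool named first under a bar and red genes lower in it; 9 against 10 mpf, with 1206, lies between the 6 mpf pair, with 874, and the 4 mpf pair, with 1305.

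Each pool lay outside the 11 others for a part of the 1206 genes. The 10 mpf pool was above all 11 other pools for 14.2% of them and below all for 11.4%, and the 9 mpf pool was below all for 18.7% and above all for 2.57%. Over all tested genes these shares were 3.54%, 11.5%, 9.40% and 1.02%. Choosing genes by a gap between both pools itself pushes a pool towards an extreme. The shares among genes so chosen, here and below, are thus partly set by that choice. Of the 867 genes lower at 9 mpf by more than 1, the 9 mpf pool was the lowest of the 13 for 25.5% and the 10 mpf pool the highest for 19.7%. Of the 339 higher genes, the 10 mpf pool was the lowest for 40.4% and the 9 mpf pool the highest for 8.26%.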

How the data were processed

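Single cells were sorted and read with SMART-Seq v4, while the paper names the Smart-Seq2 protocol. The authors trimmed reads with Trim Galore, aligned them with HISAT2 to GRCz10 and counted genes with HTSeq; versions and annotation are not given in the sources used here. The authors deposited raw counts for the classifier ages and TPM (counts divided by gene length, scaled to 1000000 per cell) for all pools. For 9 mpf, with TPM only, whole reads were recovered from gene lengths that counts and TPM of the other pools share (100% of values within 0.02 of a whole number). In all, 165 columns of cohorts outside the comparison were not used.

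Genes with a mean over 13 pools of at least 0.5 were tested with limma 3.58.1 (R 4.3.3, trend, residual degrees of freedom 4), checked on simulated data; edgeR 4.0.16 was an alternative. Samples were grouped by their labels; pool means, not cells, were the unit, and p-values measure the spread between pools. Filters on cells were the authors'; doublets were not called. Members and lists were chosen with earlier results of these data known. Named were the 12 largest differences in each direction (symbol, detected in 20% of a pool's cells, same sign in mean TPM), all called genes, genes the study discusses, and list members past 1. Symbols came from the study's tables or a table of names (26192 of 31916 IDs). Binomial intervals cover counting error only. The result of 1 listed gene is not reported here.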

Additional observations from a re-analysis of the deposited data

How the results depend on the processing

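Depth limits these values: a gene found in 1 or 2 cells of a pool has a level set by counting, and the test has 4 residual degrees of freedom from ages other than 9 and 10 mpf. The 5 genes called between 9 and 10 mpf became 14 with a pseudocount of 10, 10 after thinning to 100000 reads, 12 when pools were centred, 17 of 17457 without the filter (3 of the 5 among them), 74 with pools weighted by their cells, 8 without ins (2 higher and 6 lower) and 8 without cells rich in other islet hormones, an alternative chosen after seeing the data. They became 2 with pools of 3 mpf and older only, 0 on log2 of the mean TPM, where 579 had an unadjusted p under 0.05, and 0 with edgeR. Leaving out each paired pool in turn gave 1 to 23, with 1 without either 6 mpf pool and 21 or 23 without a 3 mpf pool. With a pseudocount of 0.1 it was 6 and with the same number of cells per pool 5. Over all alternatives the adjusted p of sorbs3 lay between 1.44e-05 and 0.532, that of gch2 between 0.000538 and 0.541, of SLC35G2 between 0.00173 and 0.321, of VGF between 0.00184 and 0.361 and of ODC1 between 0.00324 and 0.455, and the direction of each held. The 1206 genes past 1 became 2257 with a pseudocount of 0.1, 381 with 10, 2266 on log2 of the mean TPM, where the median over all genes moved to -0.26, and 2601 with edgeR. Higher genes made up 28.1% of those past 1 in the main comparison, 38.5% with a pseudocount of 0.1, 16.3% with 10, 45.7% without ins and 53.6% with edgeR. Of the same-age pairs, 3 instead of 2 had fewer such genes than 9 against 10 mpf with a pseudocount of 10 and on log2 of the mean TPM. On log2 of the mean TPM and with edgeR the sign turned for sst2 (-0.68 to 4.11 and 4.45), sst1.2 (-2.12 to 0.62 and 0.87) and prss59.1 (-0.10 to 4.03 and 4.81), on the first alone for gcga, with edgeR and without hormone-rich cells for gcgb, and with other sets of cells for fosab; none of these passed the test. No paired analysis was possible because 9 and 10 mpf are 1 pool each and replicate numbers in the titles only name cells.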
